A study of Homo sapiens with 4 samples.

Results

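DNA mismatch repair genes were followed in ribosome footprint libraries of HCT-8, an epithelial line from a human colorectal adenocarcinoma, made resistant to the drug 5-fluorouracil (5-FU). The genes were MSH6, MSH3, PMS2, PMS1, MLH3 and EXO1, taken by symbol from the deposited count files. All 6 had 1 row each among 20323 rows, and all 6 passed the low-count filter that left 12560 genes for testing. The cells carried a METTL14 overexpression plasmid (OE, 2 libraries) or a negative control plasmid (NC, 2 libraries). All 4 cultures were 5-FU-resistant and received 100 ug/mL cycloheximide, which stalls ribosomes on messages. The promoter of the plasmid, the time after transfection and whether the resistant line is 1 clone are not stated in the labels. The comparison asks which repair messages carried more or fewer ribosomes when METTL14, an RNA-binding subunit of the m6A methyltransferase, was overexpressed.

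Mismatch repair removes bases that DNA polymerase has misplaced, and small loops left by slippage in repeats. A MutS heterodimer finds the error, a MutL heterodimer nicks the new strand, an exonuclease removes the stretch with the error, and polymerase and ligase fill and seal it. MSH6 and MSH3 compete for a shared MutS partner and give that dimer its taste for single mismatches (MSH6) or longer loops (MSH3). PMS2, PMS1 and MLH3 likewise share a MutL partner, and PMS2 and MLH3 are endonucleases while PMS1 lacks that activity. EXO1 is the 5' to 3' exonuclease. In colorectal tumours loss of this repair gives microsatellite instability, for which HCT-8 is known, and repair proteins also act on 5-FU that has been built into DNA.

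Promoters are shown for 4 of the 6 genes, because these hold E2F-type words, though not the same word or at the same position. E2F-type words are the kind of site bound by the E2F factors that switch on genes for DNA replication. The words searched were TTTGGCGC, TTTCGCGC, TTTGCCGC and TTTCCCGC on both strands, in the window from 250 bases before to 50 after the first start site listed for each gene. At least 1 word was present in 3.33% of 27305 promoters of this length and in 5.61% of the 10006 that belonged to tested genes. Capitals mark the words. Sequences are from RefSeq (GRCh38.p14), matched by symbol for 6 of 6 genes, and run 5' to 3' on the strand of the gene: EXO1 at chr1:241847954-241848253 (plus), MSH3 at chr5:80654402-80654701 (plus), MSH6 at chr2:47782895-47783194 (plus) and PMS2 at chr7:6009057-6009356 (minus).
EXO1: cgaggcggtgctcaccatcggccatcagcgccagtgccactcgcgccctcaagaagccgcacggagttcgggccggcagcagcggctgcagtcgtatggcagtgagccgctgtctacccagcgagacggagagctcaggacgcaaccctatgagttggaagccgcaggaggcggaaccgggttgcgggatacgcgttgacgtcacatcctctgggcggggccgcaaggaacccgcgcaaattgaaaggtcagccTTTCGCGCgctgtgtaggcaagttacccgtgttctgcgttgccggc
MSH3: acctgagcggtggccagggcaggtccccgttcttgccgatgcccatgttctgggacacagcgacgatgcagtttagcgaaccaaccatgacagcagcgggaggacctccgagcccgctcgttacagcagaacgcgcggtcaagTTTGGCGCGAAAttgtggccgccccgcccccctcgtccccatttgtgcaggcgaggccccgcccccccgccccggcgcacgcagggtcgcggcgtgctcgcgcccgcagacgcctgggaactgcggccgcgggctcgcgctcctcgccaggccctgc
MSH6: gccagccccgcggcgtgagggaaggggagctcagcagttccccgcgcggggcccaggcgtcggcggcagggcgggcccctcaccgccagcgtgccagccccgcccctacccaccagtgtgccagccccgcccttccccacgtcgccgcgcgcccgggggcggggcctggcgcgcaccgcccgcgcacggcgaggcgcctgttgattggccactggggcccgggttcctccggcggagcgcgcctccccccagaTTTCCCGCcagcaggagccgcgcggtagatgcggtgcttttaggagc
PMS2: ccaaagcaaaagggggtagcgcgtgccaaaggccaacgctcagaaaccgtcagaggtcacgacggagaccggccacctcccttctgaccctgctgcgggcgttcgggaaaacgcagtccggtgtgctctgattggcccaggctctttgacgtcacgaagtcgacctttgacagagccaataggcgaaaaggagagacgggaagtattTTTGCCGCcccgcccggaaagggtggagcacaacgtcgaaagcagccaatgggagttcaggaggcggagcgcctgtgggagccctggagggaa

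The MSH3 promoter held 2 words that overlap on opposite strands and so form 1 run of capitals. In EXO1 and MSH6 the word lay just past the start site, and in PMS2 and MSH3 before it. The PMS1 and MLH3 windows did not contain these letters. The cyclic AMP response element TGACGTCA, found in 1.98% of all promoters and 3.31% of those of tested genes, was present in EXO1 and PMS2. The CCAAT box (CCAAT) was present in 3 of the 6, against 36.9% of promoters of tested genes, and the GC box (GGGCGG) in 5 of the 6, against 70.9%. The window of the second start site listed for EXO1 held none of these words. Of the 4 start sites listed for MSH6, only the first had an E2F-type word in its window. The window of the second start site listed for PMS2 did hold an E2F-type word. These matches describe the letters of the windows, and binding was not measured.

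The deposited estimated counts summed to 7742274 and 24392875 in OE replicates 1 and 2, and to 21846389 and 18707758 in NC replicates 1 and 2. Levels are given as CPM (counts scaled to library size) after TMM scaling between libraries. They are not divided by transcript length, so values are compared between libraries for 1 gene and never between genes. OE replicate 1 stood apart: the replicates correlated at 0.863 in OE and 0.983 in NC across the log2 CPM of 12560 genes, as a description. When genes were ordered by NC level into 10 bins, the lowest bin lay 1.17 above the NC mean in OE replicate 1 and the highest bin -1.08 from it (medians, log2). In OE replicate 2 the bins lay between -0.09 and 0.07. A footprint count mixes the amount of a message with its ribosome load, and these were not separated here.

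The epithelial identity of the line was visible in its footprints, with EPCAM at 554 and 1208 CPM in OE and 1453 and 1379 CPM in NC. The 9 epithelial markers summed to 6161 and 24522 CPM in OE replicates 1 and 2, against 21682.5 and 21073.5 CPM in NC. Most of this came from the keratins KRT8, KRT18 and KRT19. KRT20 was low, at 0.95 and 1.45 CPM in OE and 0.46 and 1.00 CPM in NC. Fibroblast markers summed to 6.68 and 2.99 CPM in OE and 9.84 and 10.3 CPM in NC. Leukocyte markers summed to 3.33 and 4.70 CPM in OE and 13.3 and 12.1 CPM in NC. CD3E, CD3D and MS4A1 were at 0 in all 4 libraries. Most of the leukocyte sum was CD14, at 2.47 and 2.80 CPM in OE and 11.5 and 8.97 CPM in NC. Endothelial markers summed to at most 0.410 CPM in any library. METTL14 itself had 448 and 91.2 CPM in OE, against 44.5 and 47.6 CPM in NC. Both OE libraries were above both NC libraries, by unequal amounts. The log2 fold change was 2.55 (SE 0.81), with a Benjamini-Hochberg adjusted p = 0.734 in edgeR's quasi-likelihood test.

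Of the 6 mismatch repair genes, 0 passed the quasi-likelihood test of edgeR at an adjusted p of 0.05, where 0% of all 12560 genes were called. The smallest unadjusted p among the 6 was 0.0542, for EXO1, so 0 of 6 were below 0.05, against 5.5% of all genes. The other fits over all 4 libraries also called 0 of the 6, among them DESeq2, the likelihood ratio test and the replicate block, which called 0.199%, 0.231% and 0.191% of all genes. All 6 log2 fold changes were above 0, with a median of 0.75, while the median over all genes was 0.09 and 7053 of 12560 genes were above 0. For EXO1 and PMS1 each OE library was higher than each NC library, a pattern that 19.9% of all genes showed, and 0 of the 6 had the opposite pattern, against 20.4% of all genes. The other 4 genes overlapped between the groups.

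**Figure D1:**
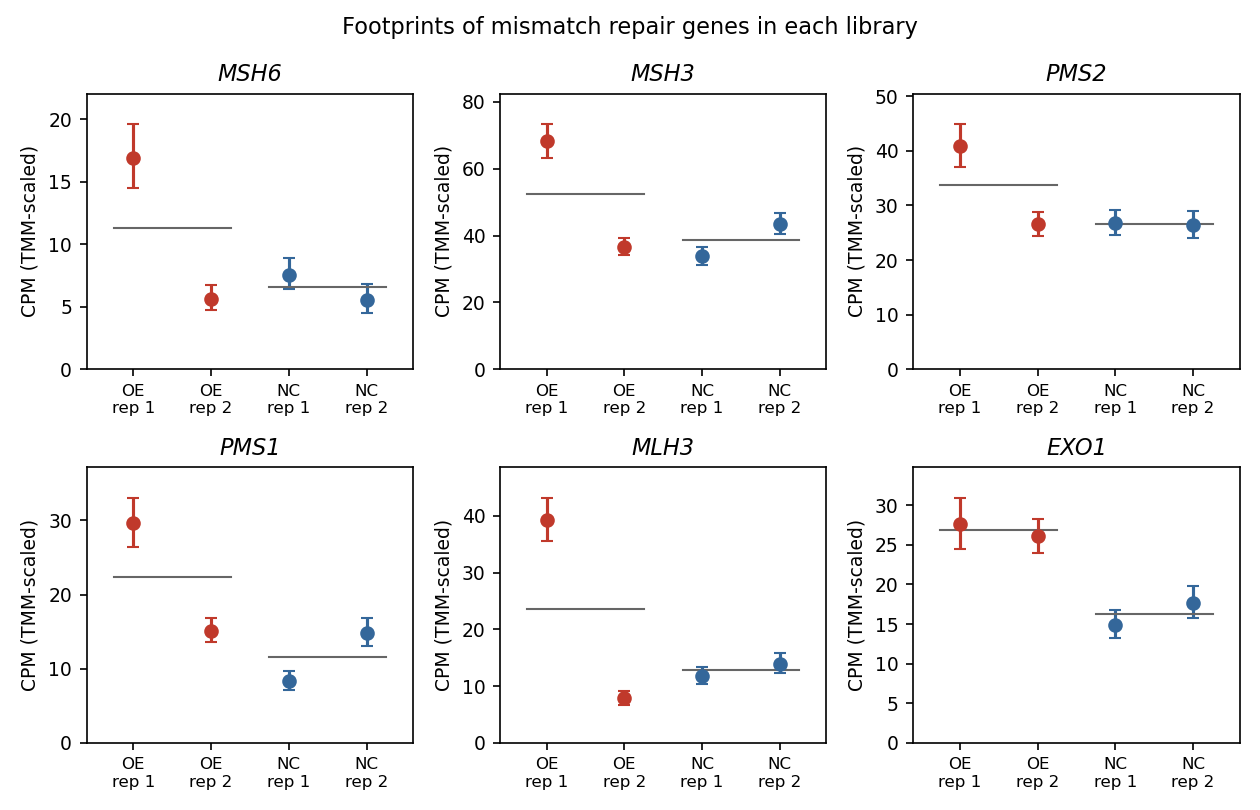
Footprint level of each mismatch repair gene (CPM, TMM-scaled, linear axis from 0) in the OE and NC libraries; points are libraries, bars are exact Poisson 95% intervals of counting error and grey lines are group means. EXO1 stands at 27.6 and 26.1 CPM in OE and at 14.9 and 17.6 CPM in NC. Every gene is highest in OE replicate 1, and for the other 5 it exceeds OE replicate 2 by more than counting error.

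MSH6, which pairs with the common MutS partner to recognise single mismatches, had the lowest counts of the set, with 178 and 125 footprints in OE and 147 and 95 in NC. HCT-8 is known to carry truncating changes in MSH6, and counts per gene do not show where on the message the footprints lay. Its level was 16.9 and 5.65 CPM in OE replicates 1 and 2, against 7.57 and 5.57 CPM in NC. OE replicate 1 was above the other 3 libraries, and OE replicate 2 lay between the NC libraries. The log2 fold change was 0.77 (SE 0.62, 95% interval -0.81 to 2.35, adjusted p = 0.752 by edgeR's quasi-likelihood test).

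MSH3, the MutS subunit for insertion and deletion loops, had 68.2 and 36.7 CPM in OE, against 33.8 and 43.5 CPM in NC. Again OE replicate 1 was the high library, and OE replicate 2 lay between the NC libraries. The log2 fold change was 0.44 (SE 0.41, 95% interval -0.62 to 1.50, adjusted p = 0.778 by edgeR's quasi-likelihood test). The footprint ratio of MSH6 to MSH3 within a library does not depend on library scaling. It was 0.249 and 0.154 in OE and 0.224 and 0.128 in NC. The replicates of a group differed more in this ratio than the groups did. The exact binomial 95% interval was 0.126 to 0.186 in OE replicate 2 and 0.102 to 0.159 in NC replicate 2, which overlap.

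PMS2, the endonuclease subunit of the main MutL dimer, had 40.8 and 26.5 CPM in OE, against 26.8 and 26.4 CPM in NC, the closest NC pair of the 6 genes. OE replicate 2 matched the NC libraries within counting error, with an exact Poisson 95% interval of 24.4 to 28.8 CPM. The log2 fold change was 0.34 (SE 0.34, 95% interval -0.52 to 1.20, adjusted p = 0.791 by edgeR's quasi-likelihood test), the smallest of the 6. PMS2 has pseudogene copies of high similarity, of which 15 rows with PMS2 names stand in the RefSeq table and 0 in the count files, so reads from such copies could not be told apart from its own.

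PMS1, a MutL subunit without known endonuclease activity, had 29.6 and 15.1 CPM in OE, against 8.32 and 14.8 CPM in NC. Both OE libraries were higher, but OE replicate 2 and NC replicate 2 were within counting error, with intervals of 13.6 to 16.9 CPM and 13.1 to 16.8 CPM. PMS1 also had the widest NC pair of the set, with a log2 difference of 0.83. Its log2 fold change was 0.95 (SE 0.50, 95% interval -0.32 to 2.22, adjusted p = 0.734 by edgeR's quasi-likelihood test), the largest of the 6.

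MLH3, the endonuclease subunit that is known mainly for meiotic crossing over, had 39.2 and 7.87 CPM in OE, against 11.7 and 14 CPM in NC. OE replicate 1 was the highest library and OE replicate 2 the lowest, 4.98-fold apart, the widest gap between OE libraries among the 6 genes. The log2 fold change was 0.87 (SE 0.76, 95% interval -1.08 to 2.81, adjusted p = 0.766 by edgeR's quasi-likelihood test). Among the MutL subunits, the footprint ratio of PMS2 to MLH3 was 1.04 and 3.37 in OE replicates 1 and 2, against 2.29 and 1.89 in NC. Both NC ratios fell between the OE ratios. With 2 libraries against 2, an exact two-sided permutation test cannot give a p below 0.333, so no ratio was tested.

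EXO1, the exonuclease that digests the nicked strand and is made mainly in dividing cells, had 27.6 and 26.1 CPM in OE, against 14.9 and 17.6 CPM in NC. The group means were 26.8 ± 1.07 CPM in OE and 16.3 ± 1.92 CPM in NC (SD, n = 2 each). Both OE libraries were above both NC libraries by more than counting error, with the nearest interval bounds at 24 CPM in OE replicate 2 and 19.8 CPM in NC replicate 2. EXO1 was the only gene of the 6 in which the OE libraries agreed within counting error, at a ratio of 1.06. The log2 fold change was 0.72 (SE 0.29, 95% interval -0.02 to 1.46), with an unadjusted p = 0.0542 and an adjusted p = 0.734 in edgeR's quasi-likelihood test. The gene therefore did not pass, and 773 genes had a smaller p.

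The libraries were then set against NC 1 at a time, an order chosen after the data were seen. In OE replicate 1, 6 of the 6 genes were above both NC libraries, where 46.7% of all genes were. In OE replicate 2, 2 of the 6 (PMS1 and EXO1) were above both, against 42.8% of all genes, and MLH3 was below both, against 42.5%. The summed level of the 6 genes was 222 and 118 CPM in OE, and 103 and 122 CPM in NC. OE replicate 1 was also the library with the lowest total count and the lowest summed epithelial markers. It had the highest METTL14 level, at 448 CPM against 91.2 CPM in OE replicate 2. Genes at low level were raised in OE replicate 1 as a whole. The part of these in the result was not tested.

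To place the genes beside others of like abundance, each was set against the tested genes whose mean NC log2 CPM was within 0.5 of its own. In OE replicate 1 the log2 difference from the NC mean was 1.61 for MLH3, 1.41 for PMS1, 1.37 for MSH6, 0.83 for MSH3, 0.76 for EXO1 and 0.62 for PMS2. Genes of like level had medians between 0.58 (around MSH6) and -0.11 (around MSH3). MSH6, MSH3, PMS1 and MLH3 lay above the upper quartile of such genes, EXO1 and PMS2 within the quartiles. In OE replicate 2 the difference was 0.68 for EXO1, 0.45 for PMS1, 0.00 for PMS2, -0.06 for MSH3, -0.20 for MSH6 and -0.69 for MLH3. There EXO1 and PMS1 lay above the upper quartiles, at 0.42 and 0.44, and MLH3 below the lower quartile, at -0.30.

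**Figure D2:**
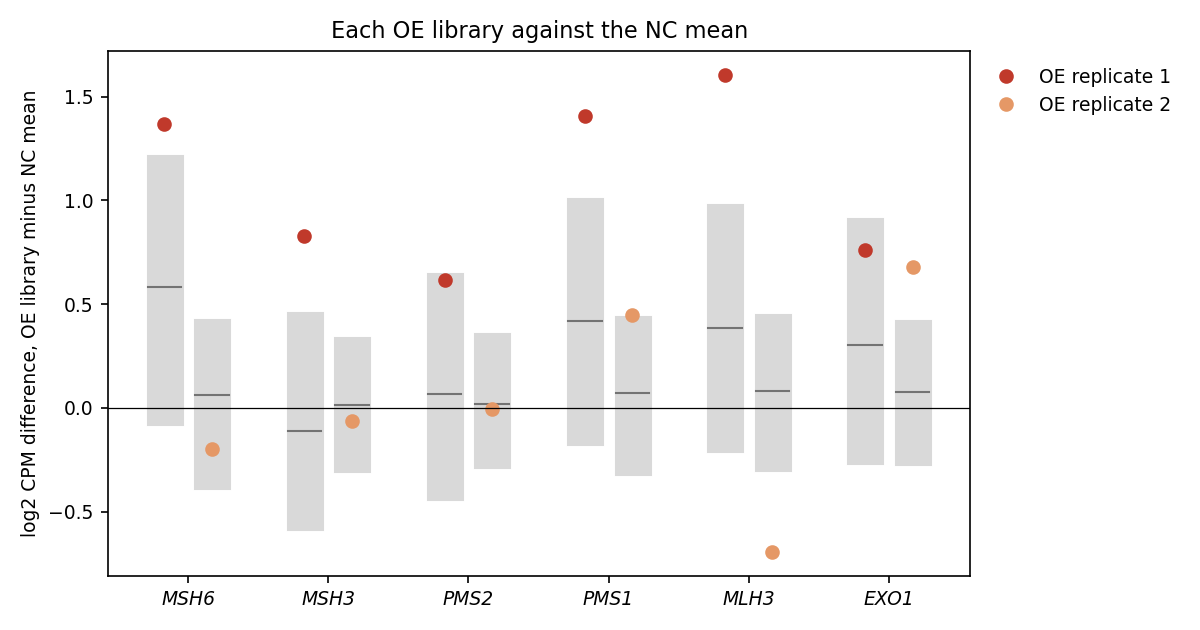
Log2 CPM difference of each OE library from the NC mean (points), beside the quartile range (grey boxes) and median (grey lines) of genes with like NC level in the same library. OE replicate 1 is above 0 for all 6 genes, and OE replicate 2 runs from 0.68 for EXO1 to -0.69 for MLH3.

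Leaving out an OE library changed the direction of 4 genes. Without OE replicate 1 the log2 fold changes were -0.70 for MLH3, -0.22 for MSH6, -0.07 for MSH3 and 0.00 for PMS2, just under 0, while PMS1 stayed at 0.40 and EXO1 at 0.68. That fit called 16.8% of all genes higher and 17.3% lower, and of the 6 it called EXO1 higher (adjusted p = 0.00351) and MLH3 lower (adjusted p = 0.0255), both by edgeR's quasi-likelihood test. Without OE replicate 2 all 6 were called higher, where 30.1% of all genes were. The log2 fold changes then lay between 0.58 for PMS2 and 1.57 for MLH3, with adjusted p from 0.00571 to 1.27e-08 by edgeR's quasi-likelihood test. Both fits judge a lone OE library by the spread of the NC pair, which was narrower than that of the OE pair.

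**Figure D3:**
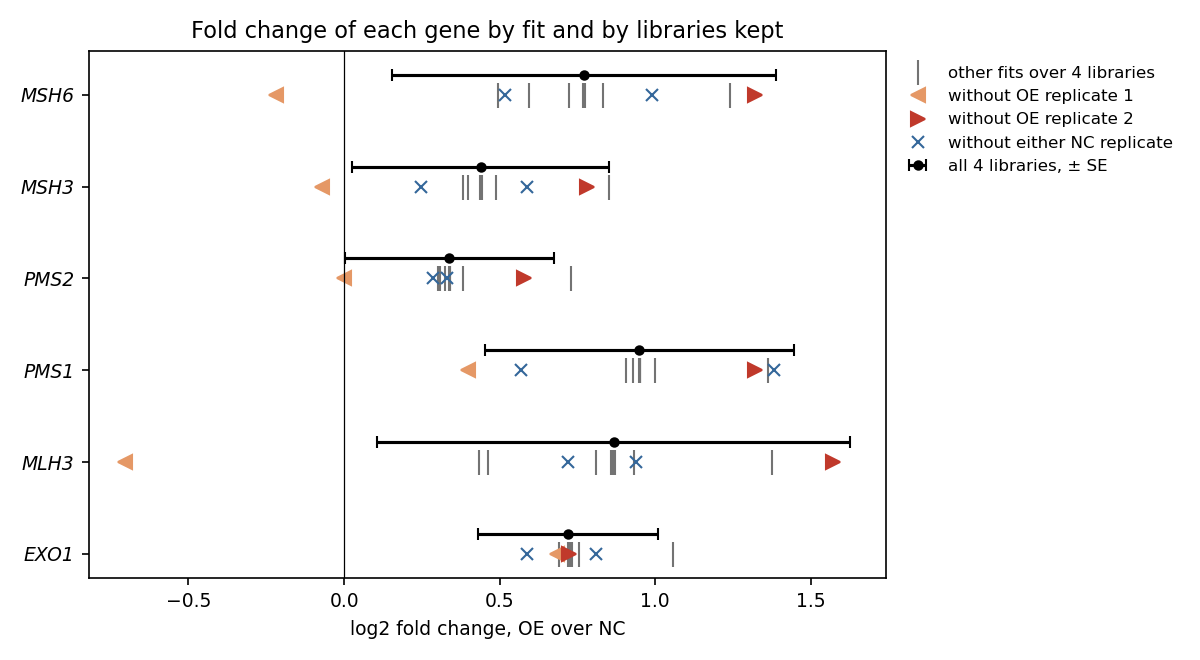
Log2 fold change, OE over NC, of each gene with all 4 libraries (black points, ± SE), in the other fits over 4 libraries (ticks) and with 1 library left out (triangles and crosses). EXO1 moves least, between 0.59 and 1.06, and MLH3 most, between -0.70 and 1.57.

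The genes most like each member were sought by the distance between log2 CPM profiles over the 4 libraries, each centred on its mean, among tested genes of similar level. Nearest to EXO1 were SGO1 and GK, at distances of 0.0613 and 0.0763. SGO1, the shugoshin that protects cohesion of sister centromeres, had 18.5 and 17.9 CPM in OE, against 9.78 and 11.4 CPM in NC. MSH3 was nearest to HES1 and SOX13, PMS2 to ARPP19 and ZNF317, and MSH6 to ZNF717 and FAM149A. PMS1 was nearest to PGPEP1 and JAK2, and MLH3 to ZDHHC4 and ARHGAP12. Among the 6 themselves MSH3 and PMS2 were closest (0.343) and MLH3 and EXO1 farthest apart (1.59). With 4 points a profile, likeness describes these libraries only.

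The steps after recognition and excision are carried out by general replication proteins. Of the sliding clamp and its loader, 0 of 6 genes were called, with a median log2 fold change of 0.34. The groups overlapped for 6 of 6, while they did not overlap for 40.3% of all genes. PCNA, the clamp that directs MutL nicking to the new strand, had 290.5 and 1500 CPM in OE, against 558 and 561 CPM in NC. It was lowest in OE replicate 1 and highest in OE replicate 2. Its log2 difference from the NC mean in OE replicate 1 was -0.95, where genes of like level had a median of -1.21. In OE replicate 2 the PCNA difference was 1.42, above the quartiles of genes of like level (-0.58 and 0.36). RFC5 and RFC3, loader subunits, had 73.7 and 197 CPM and 16.9 and 45.8 CPM in OE, against 97.5 and 95.5 CPM and 24.8 and 23.2 CPM in NC. The large loader subunit RFC1 ran the other way, with 65.7 and 30.4 CPM in OE and 57.8 and 57.7 CPM in NC. The median difference of the list from the NC mean (log2) was -0.44 and 0.87 in OE replicates 1 and 2, and that of the 6 mismatch repair genes was 1.1 and -0.03. These medians do not take account of level, on which the difference in OE replicate 1 depended. There RFC5 (-0.39) and RFC1 (0.18) were above the medians of genes of like level (-0.55 and -0.31). RFC3 (-0.50) was below its like-level median (0.11).

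For resynthesis (polymerase delta, the single-strand binding protein RPA and DNA ligase 1), 0 of 8 genes were called, 2 were higher in both OE libraries (19.9% of all genes) and 6 overlapped. The median log2 fold change was 0.19, or 0.29 without OE replicate 1 and -0.13 without OE replicate 2. POLD3, an accessory subunit of polymerase delta, had 26.3 and 43.9 CPM in OE, against 22.7 and 20.3 CPM in NC. Its log2 fold change was 0.71 (SE 0.36, adjusted p = 0.734 by edgeR's quasi-likelihood test). POLD1, the catalytic subunit, had 79.5 and 89.4 CPM in OE and 71.3 and 72.7 CPM in NC. POLD4, a small subunit, had 15 and 5.44 CPM in OE and 9.62 and 5.87 CPM in NC, and RPA2 had 29.8 and 86.0 CPM in OE and 51.6 and 43.1 CPM in NC. Both overlapped between the groups, and their log2 fold changes of 0.39 and 0.29 were -0.52 and 0.86 without OE replicate 1 and 0.91 and -0.71 without OE replicate 2.

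Of 4 accessory factors, 0 were called, 1 was higher in both OE libraries (19.9% of all genes), 1 was lower in both (20.4%) and 2 overlapped. The median log2 fold change was 0.18, or -0.39 without OE replicate 1 and 0.49 without OE replicate 2. FAN1, a nuclease that binds the MutL partner and guards repeats, had 37.5 and 15.9 CPM in OE, against 10.5 and 11.5 CPM in NC. Both OE libraries were higher, at a log2 fold change of 1.27 (SE 0.49, adjusted p = 0.734 by edgeR's quasi-likelihood test). SETD2, which writes the histone mark that MSH6 reads, had 143.9 and 40.0 CPM in OE and 59.0 and 70.4 CPM in NC. HMGB1, a chromatin protein that aids repair in vitro, had 915 and 882 CPM in OE, below 1300 and 1375 CPM in NC, and the helicase MCM9 had a log2 fold change of -0.14, or 0.19 when only library totals were used for scaling.

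The meiotic MutS homologue MSH4 had at most 1 footprint in a library and was not tested. MSH5, its partner, had 24.9 and 9.35 CPM in OE, against 11.8 and 11.1 CPM in NC, with OE replicate 1 the highest library and OE replicate 2 the lowest. Of the Rad2 family nucleases beside EXO1, 0 of 3 were called, with a median log2 fold change of 0.46. GEN1, which resolves Holliday junctions, had 12.6 and 13.1 CPM in OE, against 8.75 and 7.21 CPM in NC, and was higher in both OE libraries. FEN1, the flap endonuclease, had 40.5 and 181 CPM in OE and 85.9 and 75.2 CPM in NC, and ERCC5 had 52.2 and 19.7 CPM in OE and 26.0 and 33.6 CPM in NC. In these the OE libraries lay on opposite sides of the NC libraries.

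S phase genes were counted because EXO1 and the MutS genes are known to be made more in cycling cells. None of 10 were called, 3 were higher in both OE libraries (19.9% of all genes) and 7 overlapped, with a median log2 fold change of 0.03, or -1.05 in OE replicate 1 and 0.55 in OE replicate 2. E2F1, the transcription factor, had 48.1 and 19.9 CPM in OE, against 9.73 and 7.11 CPM in NC, a log2 fold change of 2.01 (SE 0.52, adjusted p = 0.734 by edgeR's quasi-likelihood test). CCNE2, cyclin E2, had 26.7 and 47.6 CPM in OE, against 19.0 and 18.9 CPM in NC. RRM2, a subunit of ribonucleotide reductase, had 204.9 and 1054 CPM in OE and 372 and 379.5 CPM in NC, and the replicative helicase subunit MCM7 had 243 and 652 CPM in OE and 599 and 593 CPM in NC. RRM2 and MCM7 were thus lowest in OE replicate 1, where the mismatch repair genes were highest. Genes at high NC level were lowered in that library as a whole. The log2 difference from the NC mean there was -0.87 for RRM2 and -1.29 for MCM7. Genes of like level had medians of -1.07 and -1.25, and both genes lay within the quartiles. Some other S phase genes lay below the lower quartile of genes of like level in OE replicate 1, and some above the upper quartile. E2F1 was above it, at 2.52 against 1.12. In OE replicate 2 the difference for RRM2 was 1.49, above an upper quartile of 0.31. That for MCM7 was 0.13, within the quartiles.

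**Figure D4:**
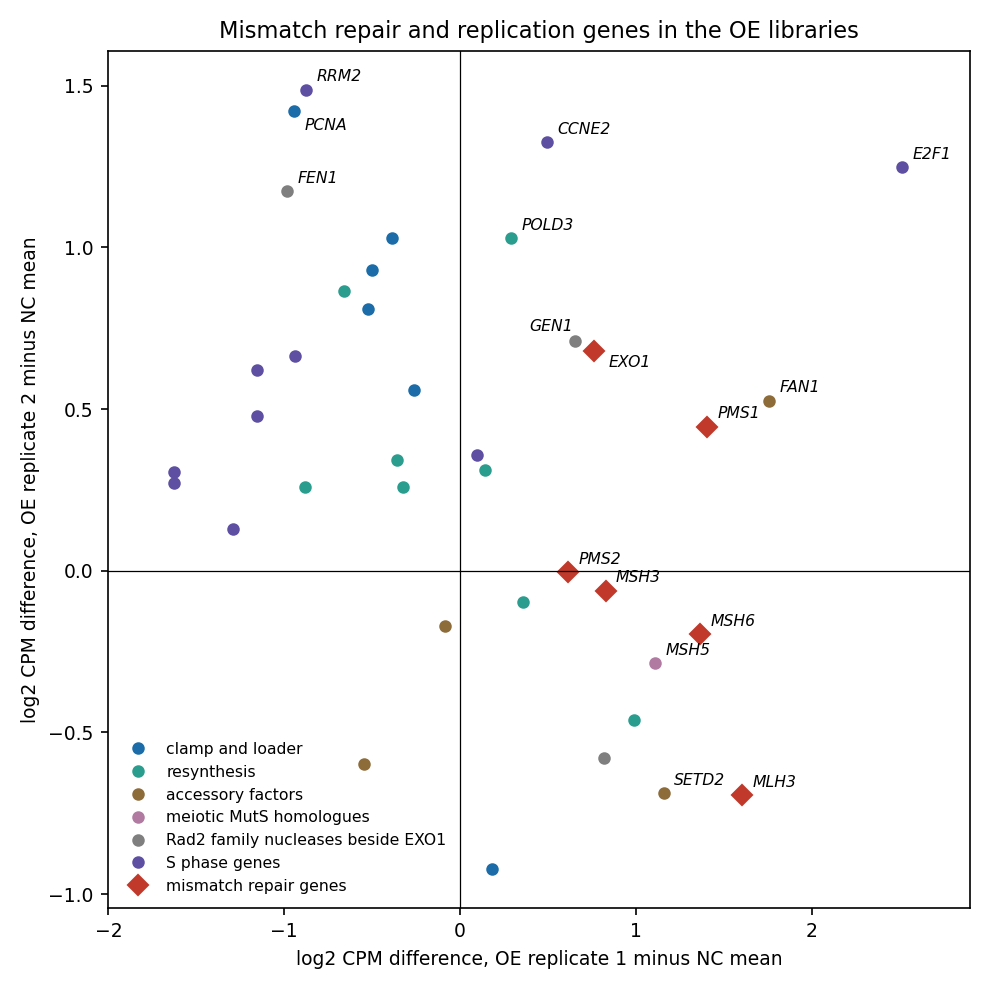
Log2 CPM difference from the NC mean in OE replicate 1 (horizontal) and OE replicate 2 (vertical) for mismatch repair genes (red diamonds) and genes of the pathway lists (circles, by list); each point is 1 gene. The 6 mismatch repair genes lie right of 0 on the horizontal axis, and PCNA, FEN1 and RRM2 lie left of it and above 0 on the vertical axis.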

How the data were processed

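Ribosome-protected fragments of 2 OE and 2 NC libraries were measured. The authors deposited 1 estimated count per Ensembl gene and library, per the file headers, of which 13.8% to 14.7% held a fraction. RSEM, StringTie, HISAT2, Bowtie2, fastp and the build hg18 are named in the submitters' processing notes. Versions, order, annotation, strand setting and handling of ribosomal RNA are not given in these sources, so overlapping or near-identical genes may share reads.

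Counts were rounded, filtered by filterByExpr (minimum count 10, total 15) and scaled by TMM (factors 1.36 and 0.907 in OE, 0.889 and 0.912 in NC). OE was compared with NC by edgeR 4.0.16 (R 4.3.3) quasi-likelihood tests with Benjamini-Hochberg adjustment over all 12560 genes at 0.05. The common dispersion corresponded to a biological coefficient of variation of 0.423. Fold changes on the log2 scale are from this fit, and log2 CPM used a prior count of 2. Alternatives used DESeq2 1.42.0, limma 3.58.1, other scalings and filters, a replicate block and left-out libraries. A planned comparison of levels per coding length was not made, since protein lengths were not used here. Replicates differed beyond sampling noise (chi-square over its degrees of freedom 330.1 in OE, 13 in NC), more than 1 library sequenced again would, which does not show separate cultures. The submitters describe independent experiments. The p-values set the difference between groups against the spread between these libraries. In the quasi-likelihood fit that spread is moderated by the spread of other genes (2 residual and 3.09 prior degrees of freedom). Intervals of CPM and of footprint ratios cover counting error only. PCR copies were not told apart, so these intervals may be too narrow. Intervals of log2 fold changes come from the quasi-likelihood fit and its spread between libraries. The 3 counts taken as the limit for a count of 0 correspond to 0.286 and 0.136 CPM in OE and 0.1545 and 0.176 CPM in NC. On simulated counts over 12364 genes edgeR called 17.3% of 4-fold and 83% of 16-fold changes. The simulated libraries did not carry the level-dependent shift seen in OE replicate 1, so these shares may not hold for the measured counts.

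The members and lists were chosen with earlier results of these data known. Named genes were METTL14, the 6 members, the 4 smallest p of each pathway list and the 2 nearest profiles of each member. MSH4 is named as an untested list member. EPCAM, the keratins, CD3E, CD3D, MS4A1 and CD14 were picked from the fixed marker lists after their values were seen. Some genes of this pathway are not reported here.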

Additional observations from a re-analysis of the deposited data

How the results depend on the processing

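All 6 mismatch repair genes kept a log2 fold change above 0, with none called, in the 8 other fits over all 4 libraries (DESeq2 Wald test, likelihood ratio test, voom with quality weights, RLE scaling, library totals, no filter, minimum count 50, replicate block). Their median was 0.75, and ran from 0.47 with voom to 1.15 with library totals, which also moved the median of all genes to 0.40 from 0.09. Genes called numbered 0 in the quasi-likelihood fit, 25 with DESeq2, 29 with the likelihood ratio test and 24 with the replicate block. The labels do not say whether same-numbered libraries were handled together. The correlation of their deviations was -0.0974, which cannot settle this with 2 pairs and OE replicate 1 standing apart. With the replicate block the 6 genes had a median of 0.53 and 0 calls. With 1 library left out, genes called ran from 7 to 7969 and members called from 0 to 6. The ranges were -0.22 to 1.32 for MSH6, -0.0704 to 0.78 for MSH3, -0.0018 to 0.58 for PMS2, 0.40 to 1.38 for PMS1, -0.70 to 1.57 for MLH3 and 0.59 to 0.81 for EXO1. The values below 0 all came without OE replicate 1. METTL14 was 2.54 with DESeq2 (adjusted p = 0.0495). Members above both NC libraries numbered 2 (19.9% of all genes), against 6 with OE replicate 1 alone (46.7%) and 2 with OE replicate 2 alone (42.8%). With 95 to 178 footprints in a library, MSH6 has the widest counting error of the 6. The cause of these shifts was not tested.
Among the pathway lists, the median was 0.34 for the clamp and loader, 0.87 without OE replicate 1 and -0.49 without OE replicate 2. For S phase genes it was 0.03, 0.55 and -1.09, and for the Rad2 nucleases 0.46, 0.71 and 0.61.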
